A study of Mus musculus with 29 samples.

Results

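Primary abdominal neuroblastomas of TH-MYCN mice were ranked by a cell cycle score, and the 8 tumours of highest score (cell-cycle-high) were set against the 8 of lowest score (cell-cycle-low), 16 of 24 tumours in all. The score of a tumour was its mean log2 signal over Mki67, Top2a, Bub1, Aurkb and Foxm1, which are 5 of the 6 genes of the rule; the sixth was not analysed here. These genes are left out of every comparison of gene signal between the groups, and are named only to describe the score. Because the groups were chosen by these log2 values on the same arrays, each difference between cell-cycle-high and cell-cycle-low tumours is given as a description, with no test.

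All animals carried the TH-MYCN transgene, in which the promoter of tyrosine hydroxylase drives MYCN in the sympathoadrenal lineage, on strain 129X1/SvJ. The series held 17 caspase-8 deficient and 7 wild type primary tumours and 5 bone marrow samples, which entered no comparison here and served only in choosing each gene's probe set, with 1 mouse 3' expression array for each sample. Which part of Casp8 was deleted, the age of the animals and whether each tumour came from its own animal are not given, so spreads and p-values refer to these samples. Numbers in the sample titles fell into a lower series (10 tumours) and a higher series (14 tumours), and what separates them is not stated.

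A proliferating cell licenses replication origins and commits to S phase through cyclin D and cyclin E kinases and E2F factors, copies its DNA, and then enters mitosis under cyclin B kinase, Aurora kinases and Polo-like kinase. S phase genes are switched on largely by E2F factors, and G2/M genes largely by the DREAM and MuvB complexes with MYB and FOXM1, which act at CHR elements and CCAAT boxes. In bulk tumour RNA a cell cycle transcript can be higher because more cells cycle or because each cell holds more of it, and likewise for a marker of another cell type; these cannot be told apart here.

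Scores spanned only 0.53 log2 units. They ran from 9.82 to 9.95 (median 9.87) in cell-cycle-high tumours and from 9.42 to 9.69 (median 9.64) in cell-cycle-low tumours, with means of 9.87 ± 0.04 and 9.60 ± 0.09 (SD, n = 8 each), a ratio of 1.21 on the linear scale. The last tumour inside the high group scored 9.819 and the first outside it 9.800, while the last tumour of the middle scored 9.694 and the first of the low group 9.686, so both borders cut a continuous series. The cell-cycle-high group held 7 deficient tumours and 1 wild type tumour, 7 of them of the higher title series. The cell-cycle-low group held 4 deficient and 4 wild type tumours, 4 of each title series. Deficient tumour 10, the last tumour inside the high group, had the highest Mki67 of all tumours, at 12.22, while its Aurkb was at 8.35, under the mean of 8.57 over the 24 tumours.

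**Figure D1:**
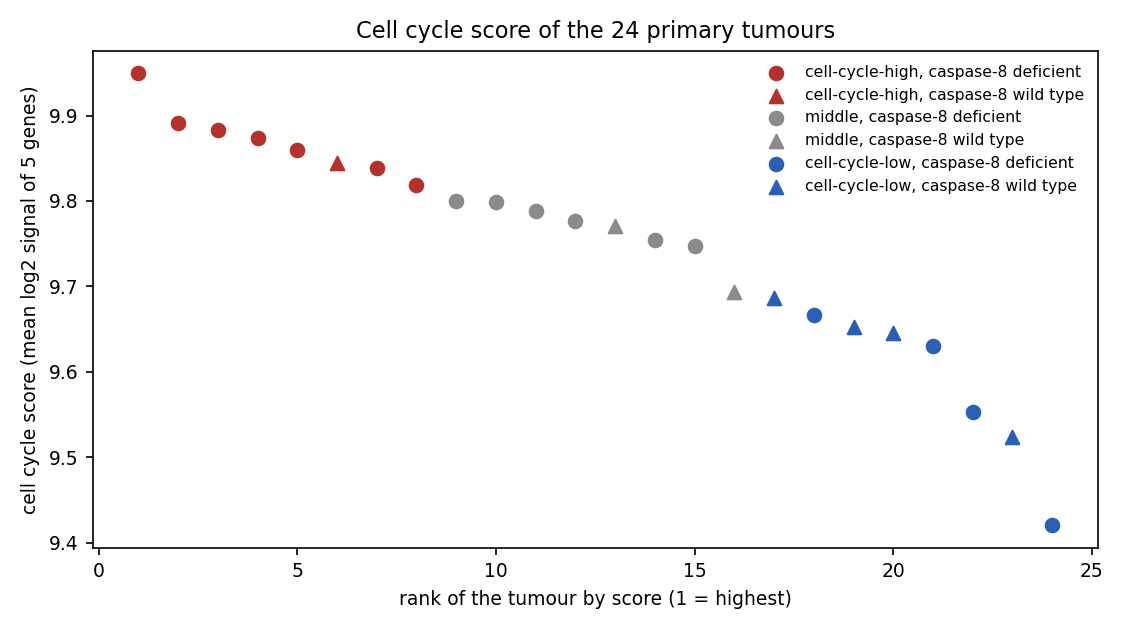
Cell cycle score (mean log2 signal of 5 genes) of each of the 24 primary tumours, against its rank. Circles are caspase-8 deficient and triangles wild type tumours; the 8 cell-cycle-high tumours lie between 9.82 and 9.95 and the 8 cell-cycle-low tumours between 9.42 and 9.69.

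Whether the score differs by genotype or title series could be tested, since neither entered the rule. The score was 9.77 ± 0.13 (SD, n = 17) in deficient tumours and 9.69 ± 0.10 (SD, n = 7) in wild type tumours, a difference of 0.080 (two-sided exact permutation p = 0.174, adjusted over 2 tests p = 0.349). Within the higher title series that difference was 0.15 (exact p = 0.0859), and within the lower series it was reversed, at -0.015 (exact p = 0.858). Tumours of the higher series scored 9.76 ± 0.15 (n = 14) and those of the lower series 9.72 ± 0.09 (n = 10), a difference of 0.046 (exact permutation p = 0.397, adjusted p = 0.397). Neither difference exceeded the spread between tumours, and the deficient and wild type ranges overlapped.

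Some tumours stood apart in what else they contained. Skeletal muscle genes were high in deficient tumour 11 (list mean 8.38), wild type tumour 3 (7.56) and wild type tumour 7 (6.55), the first pair cell-cycle-high and the last cell-cycle-low; all other tumours of both groups were at or below 4.80. Wild type tumour 5, which is cell-cycle-low, had the lowest endothelial (5.04) and pericyte (5.61) list means and the highest interferon response (6.34) of the 16. The difference between 3' and 5' probe sets of control genes, a sign of RNA quality that rises with degradation, was 0.79 ± 0.23 in cell-cycle-high and 0.68 ± 0.17 in cell-cycle-low tumours. The part of these differences in the results was not tested; values without single tumours are given where they matter.

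Of 18189 genes, 61 had all 8 cell-cycle-high tumours above all 8 cell-cycle-low tumours, which is 0.335% of genes, and 23 had all 8 below, which is 0.126%. Nothing is read from these shares, since the rule used this contrast. Which genes separated the groups also depended on the processing. With quantile normalization of the 24 tumours and the groups drawn again, 23 of the 61 and 3 of the 23 did so. Differences were small overall: the median over all genes was 0.040, 471 genes lay above 0.5 log2 units and 342 below -0.5, and 99 differed by more than 1 in either direction. Among the 61 genes were 8 of the 253 measured members of 9 cell cycle lists (Asf1b, Kif18b, Cenpm, Spc25, Melk, Cenps, Birc5 and Rrm2). The 23 lower genes held none of them.

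The sequences that frame this contrast are the promoters of the cell cycle genes whose groups did not overlap. Shown first are the 4 that hold both a CHR element and a CCAAT box, and then Melk, the gene that followed the score most closely, which holds neither. RefSeq sequences of assembly GRCm38.p6 run from 250 bases before the gene's start to 50 after it; capitals mark 3 kinds of word, each searched on both strands. The E2F words were TTCCCGC and the word TTTGGCGC and also TTTCCCGC, which contains the first; the CHR element was the word TTTGAA or the word TTCGAA; and the last was CCAAT.
Asf1b, chr8:83955444-83955743, plus strand: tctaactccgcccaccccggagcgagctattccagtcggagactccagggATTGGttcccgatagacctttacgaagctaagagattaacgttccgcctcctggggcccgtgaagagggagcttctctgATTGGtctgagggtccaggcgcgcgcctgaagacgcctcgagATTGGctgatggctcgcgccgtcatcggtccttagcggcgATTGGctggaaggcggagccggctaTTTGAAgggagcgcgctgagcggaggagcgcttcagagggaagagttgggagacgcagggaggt
Cenpm, chr15:82244287-82244586, minus strand: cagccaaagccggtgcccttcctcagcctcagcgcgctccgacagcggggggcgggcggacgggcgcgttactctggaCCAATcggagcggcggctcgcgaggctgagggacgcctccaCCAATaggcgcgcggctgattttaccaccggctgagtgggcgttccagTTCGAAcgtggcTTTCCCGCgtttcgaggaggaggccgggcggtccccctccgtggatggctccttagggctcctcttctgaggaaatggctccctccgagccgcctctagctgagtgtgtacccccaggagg
Kif18b, chr11:102925075-102925374, minus strand: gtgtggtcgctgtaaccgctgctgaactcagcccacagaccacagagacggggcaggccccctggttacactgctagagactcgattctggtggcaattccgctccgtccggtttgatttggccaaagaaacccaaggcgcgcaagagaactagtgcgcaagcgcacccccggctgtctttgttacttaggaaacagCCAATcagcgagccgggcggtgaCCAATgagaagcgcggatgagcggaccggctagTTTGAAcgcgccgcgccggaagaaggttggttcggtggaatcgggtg
Spc25, chr2:69206164-69206463, minus strand: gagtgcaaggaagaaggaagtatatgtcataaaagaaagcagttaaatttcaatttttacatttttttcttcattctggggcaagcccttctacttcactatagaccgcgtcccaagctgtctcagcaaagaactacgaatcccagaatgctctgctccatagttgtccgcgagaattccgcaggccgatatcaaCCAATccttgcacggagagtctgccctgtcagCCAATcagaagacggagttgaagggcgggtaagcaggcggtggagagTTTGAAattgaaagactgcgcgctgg
Melk, chr4:44300667-44300966, plus strand: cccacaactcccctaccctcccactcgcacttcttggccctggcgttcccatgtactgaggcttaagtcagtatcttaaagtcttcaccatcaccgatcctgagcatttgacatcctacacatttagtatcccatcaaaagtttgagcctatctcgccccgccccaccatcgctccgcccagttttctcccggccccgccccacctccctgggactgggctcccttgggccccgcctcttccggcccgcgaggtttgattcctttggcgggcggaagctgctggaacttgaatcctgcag

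In the Asf1b promoter 4 CCAAT boxes, all read on the opposite strand as ATTGG, precede a CHR element that begins 14 bases before the start. Cenpm has CCAAT boxes beginning 172 and 131 bases before the start, a CHR element at 83 bases and an E2F word at 71 bases before it. In Kif18b the CCAAT boxes begin 53 and 30 bases before the start and the CHR element 3 bases after it, and in Spc25 the boxes begin 55 and 23 bases before the start and the CHR element 24 bases after it. A CHR element and a CCAAT box occurred together in 16.1% of the 62 promoters of the genes higher without overlap, of which 53 of 61 matched the table. They did so in none of the 27 promoters of the genes lower without overlap (20 of 23 matched). Over all 18107 promoters of 14450 measured genes the share was 5.95%, and over the 252 promoters of cell cycle list members, whether higher or not, it was 25.8%. An E2F word was found in 21% of the promoters of higher genes and 7.41% of those of lower genes, beside 7.41% of all promoters and 26.2% of those of list members. These matches are descriptions of the letters, and list members chosen for their role in the cycle make up 8 of the 61 genes.

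The cell cycle lists were higher in cell-cycle-high tumours throughout, by small amounts. Of 253 measured members 219 were higher (86.6%, beside 60.6% of all genes), with a median difference of 0.16 log2 units beside 0.040 over all genes. Their mean signal ran from 8.83 to 9.15 (median 9.08) in cell-cycle-high tumours and from 8.75 to 9.0 (median 8.92) in cell-cycle-low tumours. Only 3 members differed by more than 0.5. The medians of the 9 lists kept their sign under all 31 settings tried, between 0.067 and 0.32. Each setting still grouped tumours by cell cycle genes of the same arrays, and 16 only left out 1 tumour, so this is no independent check.

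Of the 9 lists, 3 mitotic ones had the highest medians. Centromere and kinetochore genes had a median difference of 0.23 (29 of 32 higher), G2/M kinases, cyclins and phosphatases 0.22 (21 of 22 higher) and spindle, kinesin and cytokinesis genes 0.19 (32 of 35 higher). The spindle list was the only cell cycle list whose mean separated the groups, at 9.02 to 9.19 in cell-cycle-high tumours and 8.78 to 9.02 in cell-cycle-low tumours. DNA synthesis and nucleotide supply followed at 0.17 (30 of 31 higher), then replication licensing at 0.14 (22 of 28), condensin, cohesin and replication chromatin at 0.14 (19 of 25), spindle checkpoint and APC/C genes at 0.14 (23 of 27), DNA repair and replication stress at 0.13 (26 of 30) and G1/S cyclins, CDKs and E2F factors at 0.13 (17 of 23). The G1/S median was 0.069 without deficient tumour 9.

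**Figure D2:**
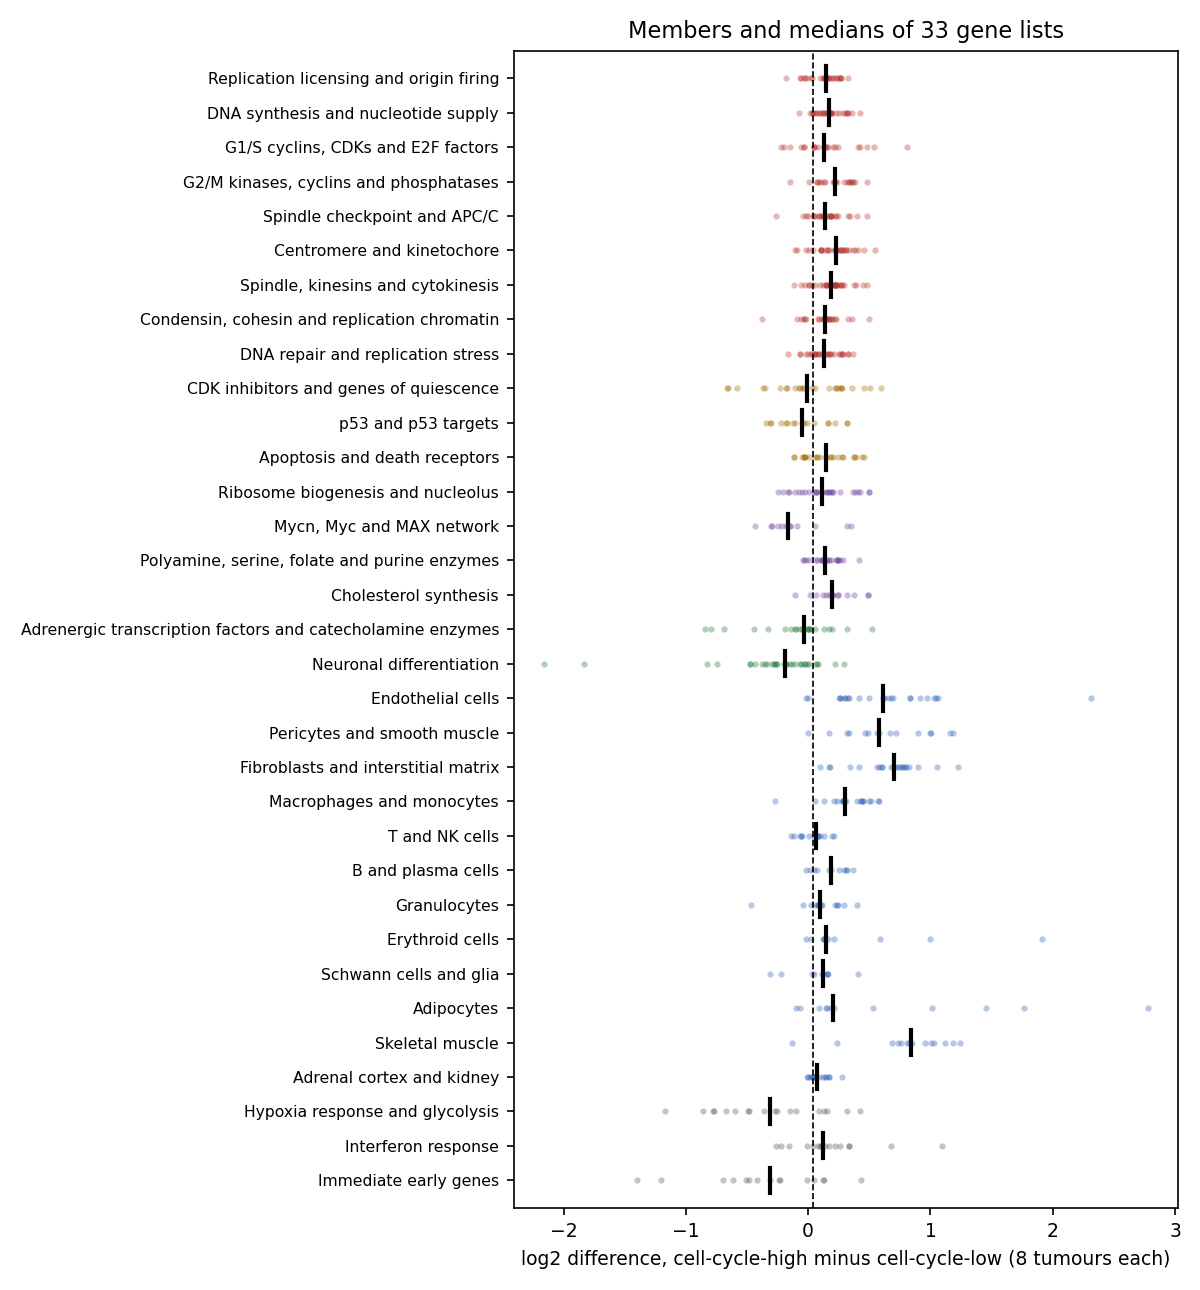
Log2 difference, cell-cycle-high minus cell-cycle-low (8 tumours each), for the members (dots) of 33 gene lists; black bars are list medians and the dashed line is the median of all genes, 0.040. The 9 cell cycle lists at the top lie at 0.13 to 0.23, the endothelial, pericyte and fibroblast lists at 0.58 to 0.71, and the neuronal, hypoxia and immediate early lists below 0.

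Among kinetochore genes, Spc25, a subunit of the NDC80 complex that binds spindle microtubules, had a median of 10.15 in cell-cycle-high tumours, the highest at 10.39, and ran from 9.62 to 9.95 (median 9.75) in cell-cycle-low tumours, a difference of 0.41 (SE 0.07). A dimmer probe set of Spc25 differed by -0.16. Cenpm, part of the centromere-associated network, ran from 7.97 to 8.41 in cell-cycle-high and from 7.32 to 7.92 in cell-cycle-low tumours (0.46, SE 0.08). Both separated the groups. Ska2, which couples kinetochores to microtubules, had the largest difference of the list at 0.54 (SE 0.21), but its values overlapped, at 8.41 to 8.92 in cell-cycle-high and 7.14 to 8.75 in cell-cycle-low tumours. Its partner Ska3 differed by 0.39 (SE 0.23) and by only 0.096 within the higher title series.

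In the spindle list, Kif18b, a kinesin that shortens astral microtubules, ran from 8.04 to 8.37 (median 8.26) in cell-cycle-high tumours and from 7.47 to 8.0 (median 7.73) in cell-cycle-low tumours (0.48, SE 0.07). Anln, a scaffold of the cytokinetic ring, differed by 0.45 (SE 0.15), Tpx2, which activates Aurora A on the spindle, by 0.39 (SE 0.06), and Cdca8, the borealin subunit of the chromosomal passenger complex, by 0.38 (SE 0.08). Of these 4 only Kif18b separated the groups. Birc5, the survivin subunit of the same complex as Cdca8, also did, at 10.64 and above in cell-cycle-high tumours and 10.60 and below in cell-cycle-low tumours. A dimmer probe set of Anln differed by -0.10.

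Among G2/M kinases, Melk, a kinase of dividing cells, ran from 9.54 to 9.73 (median 9.65) in cell-cycle-high tumours and from 9.10 to 9.40 (median 9.27) in cell-cycle-low tumours (0.38, SE 0.05). Ccnf, the F-box cyclin F, differed by 0.48 (SE 0.11), Haspin, the kinase that marks histone H3 at mitotic centromeres, by 0.37 (SE 0.10), and Plk1, Polo-like kinase, by 0.35 (SE 0.07), each with some overlap. Ccnb2, a B-type cyclin, was 10.45 ± 0.09 in cell-cycle-high and 10.16 ± 0.12 in cell-cycle-low tumours. Cdk1, its kinase partner, showed almost no difference, 10.55 ± 0.33 in cell-cycle-high and 10.45 ± 0.19 in cell-cycle-low tumours (0.11, SE 0.14). Cdk1 was at 9.75 in deficient tumour 10, far below the other 7 cell-cycle-high tumours, and its difference was 0.22 without that tumour and 0.071 without wild type tumour 3.

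At the spindle checkpoint and APC/C, Pttg1, the securin that guards sister chromatids, differed by 0.48 (SE 0.23), by 0.31 without deficient tumour 7, and by 0.26 within the higher series. Zw10, a checkpoint protein of the kinetochore, differed by 0.40 (SE 0.09), Mad2l1, the checkpoint effector, by 0.34 (SE 0.10), and Ube2c, the ubiquitin-conjugating enzyme of the APC/C, by 0.32 (SE 0.10). None of the 4 separated the groups. In the chromatin list Asf1b, a chaperone of histones H3 and H4, ran from 8.46 to 8.71 (median 8.56) in cell-cycle-high tumours and from 7.83 to 8.27 (median 8.07) in cell-cycle-low tumours (0.50, SE 0.06), without overlap. Stag1, a cohesin subunit, differed by 0.36 (SE 0.09) and Ncapg, a condensin subunit, by 0.33 (SE 0.08). The second probe set of Ncapg, nearly as bright, differed by -0.15. Other probe sets of Stag1 differed by -0.04 to 0.17. Lmnb1, lamin B1, went the other way at -0.38 (SE 0.33), a value that was -0.72 without the 3 muscle-rich tumours and 0.065 within the higher series.

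For S phase, Uhrf1, which recruits DNA methylation to new DNA, was 10.59 ± 0.15 in cell-cycle-high and 10.27 ± 0.16 in cell-cycle-low tumours (SD, n = 8 each). Rpa1, the large single-strand binding subunit, was 10.63 ± 0.13 in cell-cycle-high and 10.31 ± 0.11 in cell-cycle-low tumours. The DNA polymerase subunits Pole2 and Pola1 differed by 0.43 (SE 0.18) and 0.36 (SE 0.19). All of these overlapped between groups, whereas Rrm2, the regulated subunit of ribonucleotide reductase, did not, at 11.63 and above in cell-cycle-high tumours and 11.61 and below in cell-cycle-low tumours. Licensing genes were more scattered: Mcm3, a helicase subunit, differed by 0.32 (SE 0.13), and Cdc6, its loader, by 0.27 (SE 0.17), Gins2 by 0.27 (SE 0.12) and Gmnn, geminin, by 0.26 (SE 0.12). Of the repair genes, Usp1, which removes ubiquitin from FANCD2 and PCNA, differed by 0.36 (SE 0.09), Bard1, the partner of BRCA1, by 0.33 (SE 0.12), Fancc by 0.33 (SE 0.07) and the exonuclease Exo1 by 0.29 (SE 0.15). The dimmer probe sets of Exo1 differed by -0.056 and -0.34.

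Deficient tumour 10 was the lowest of the 8 cell-cycle-high tumours in all 9 cell cycle lists. Its licensing list mean was 8.76, below the 9.20 of the next tumour of its group and below the lowest cell-cycle-low tumour, at 8.89. Its spindle list mean, 9.02, lay at the border of the groups. Without it the licensing median was 0.19 and the G2/M median 0.26, against 0.14 and 0.22 with it.

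The largest single difference of the cell cycle lists was in a G1 regulator. Ccnd2, cyclin D2, ran from 6.03 to 7.5 (median 6.69) in cell-cycle-high tumours and from 5.07 to 6.76 (median 5.94) in cell-cycle-low tumours, a difference of 0.81 (SE 0.28). Cdk6, a kinase partner of D cyclins, differed by 0.54 (SE 0.23), and by 0.28 with the probe set that was brightest over the 24 tumours alone. Both overlapped between the groups, and within the lower series, with 1 cell-cycle-high and 4 cell-cycle-low tumours, their signs turned, at -0.066 and -0.10. Tumours of middle score averaged 6.96 for Ccnd2 and 5.63 for Cdk6, above the cell-cycle-high means of 6.76 and 5.29. The G1/S list mean was likewise 8.38 in the middle tumours and 8.34 in cell-cycle-high tumours. Mybl2, the B-MYB factor that joins MuvB, differed by 0.48 (SE 0.10), while its other, dimmer probe set differed by -0.51. E2f7, a repressor of E2F targets, differed by 0.42 (SE 0.20), and E2f1 by 0.22 (SE 0.09).

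CDK inhibitors and genes of quiescence had no common direction: 13 of 26 were higher, with a median of -0.01 whose sign turned under many settings. Within it Cdkn1c, the p57 inhibitor, was 6.62 ± 0.39 in cell-cycle-high and 7.29 ± 0.56 in cell-cycle-low tumours (-0.67, SE 0.24). Txnip, a thioredoxin-binding inhibitor of glucose uptake, differed by -0.66 (SE 0.25) and Pdcd4, an inhibitor of translation, by -0.58 (SE 0.19). Cdkn2c, the p18 inhibitor and itself an E2F target, was instead higher by 0.60 (SE 0.20), and Cdkn1b, the p27 inhibitor, differed by -0.07 (SE 0.05). A much dimmer probe set of Cdkn1b averaged 4.87 in cell-cycle-high and 5.88 in cell-cycle-low tumours. All 5 overlapped. The Cdkn1c difference was -0.36 with genotype and title series as terms, and Cdkn2c was at 0.032 within the lower series. The p53 target list had a median of -0.05 (6 of 17 higher), and the apoptosis and death receptor list 0.15 (18 of 25 higher), which was 0.023 when a gene's probe sets were averaged and the groups drawn again on them, sharing 6 of 8 tumours on each side.

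Growth lists had no common direction. Ribosome biogenesis had a median of 0.11 (21 of 29 higher), polyamine, serine, folate and purine enzymes 0.14 (19 of 22) and cholesterol synthesis 0.20 (14 of 15), with list means that overlapped widely. The Mycn, Myc and MAX network had a median of -0.17 (3 of 12 higher). Mouse Mycn ran from 7.27 to 7.53 (median 7.39) in cell-cycle-high tumours and from 7.34 to 7.86 (median 7.72) in cell-cycle-low tumours (-0.30, SE 0.07); the human transgene was not analysed. A dimmer probe set of Mycn differed by -0.57 and another by 0.04. Mxd1 and Mxi1, MAX partners that oppose MYC, differed by -0.43 (SE 0.10) and -0.30 (SE 0.09), whereas Mxd3, a MAX partner known from S phase, was higher by 0.35 (SE 0.10), and Mlx, another protein of the network, by 0.32 (SE 0.12). Casp8 was 5.82 ± 0.36 in cell-cycle-high and 5.39 ± 0.52 in cell-cycle-low tumours (0.44, SE 0.22) although 7 of the 8 cell-cycle-high tumours were labelled deficient. Among the deficient tumours alone its difference was 0.77.

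The widest difference without overlap was in a neurosecretory gene. Scg2, secretogranin II, a granin of dense-core vesicles, ran from 4.80 to 6.48 (median 5.59) in cell-cycle-high tumours and from 6.85 to 8.41 (median 7.96) in cell-cycle-low tumours, a difference of -2.16 (SE 0.28), or 4.47-fold lower. The Scg2 difference was -1.2 within the lower title series. Neuronal differentiation genes as a list had a median of -0.19, with 6 of 33 higher, and list means of 8.47 to 8.82 in cell-cycle-high and 8.73 to 9.11 in cell-cycle-low tumours. The low end of the cell-cycle-low range was wild type tumour 5.

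Mapt, the axonal microtubule protein tau, ran from 6.06 to 6.93 in cell-cycle-high and from 7.01 to 7.96 in cell-cycle-low tumours (-0.74, SE 0.16), and its 3 other probe sets differed by -0.39 to -1.01. Npy, neuropeptide Y of sympathetic neurons, was 8.87 ± 0.81 in cell-cycle-high and 10.71 ± 0.86 in cell-cycle-low tumours (-1.84, SE 0.42), with overlap, and differed by -0.68 within the lower series. Ank2, ankyrin-B of neurites, differed by -0.82 (SE 0.18). The catecholamine enzymes were lower as well: Th, tyrosine hydroxylase, ran from 9.45 to 11.67 (median 10.89) in cell-cycle-high tumours and from 11.11 to 11.91 (median 11.53) in cell-cycle-low tumours (-0.85, SE 0.26), and Dbh, dopamine beta-hydroxylase, differed by -0.44 (SE 0.25). The adrenergic list that holds them had a median of -0.03 (10 of 22 higher), whose sign turned under several settings.

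Other genes lower without overlap had no common list. Celf6, a splicing regulator of the CELF family, ran from 6.46 to 7.31 in cell-cycle-high and from 7.45 to 8.44 in cell-cycle-low tumours (-1.18, SE 0.17). Syt11, a vesicle protein of the synaptotagmin family, ran from 9.47 to 9.80 in cell-cycle-high and from 9.82 to 10.87 in cell-cycle-low tumours (-0.67, SE 0.14), and its other probe sets differed by -0.56 to -0.69. Rsph9, of the radial spokes of motile cilia, differed by -0.77 (SE 0.16), and Bbs7, a subunit of the ciliary BBSome, by -0.47 (SE 0.11). Kcnma1, the pore of the large-conductance calcium-activated potassium channel, differed by -0.66 (SE 0.15), though another of its probe sets differed by 0.22. Ccdc173 differed by -0.66 (SE 0.15), Ccpg1os by -0.66 (SE 0.15), Rufy2 by -0.65 (SE 0.11), Arhgef17 by -0.49 (SE 0.11) and Zgrf1 by -0.49 (SE 0.14). With the probe set brightest over the 24 tumours alone, Syt11 (-0.56) and Kcnma1 (-0.78) overlapped between the groups. Over all named genes, 61 had other probe sets, and 18 of these probe sets, in 15 genes, differed with the opposite sign.

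**Figure D3:**
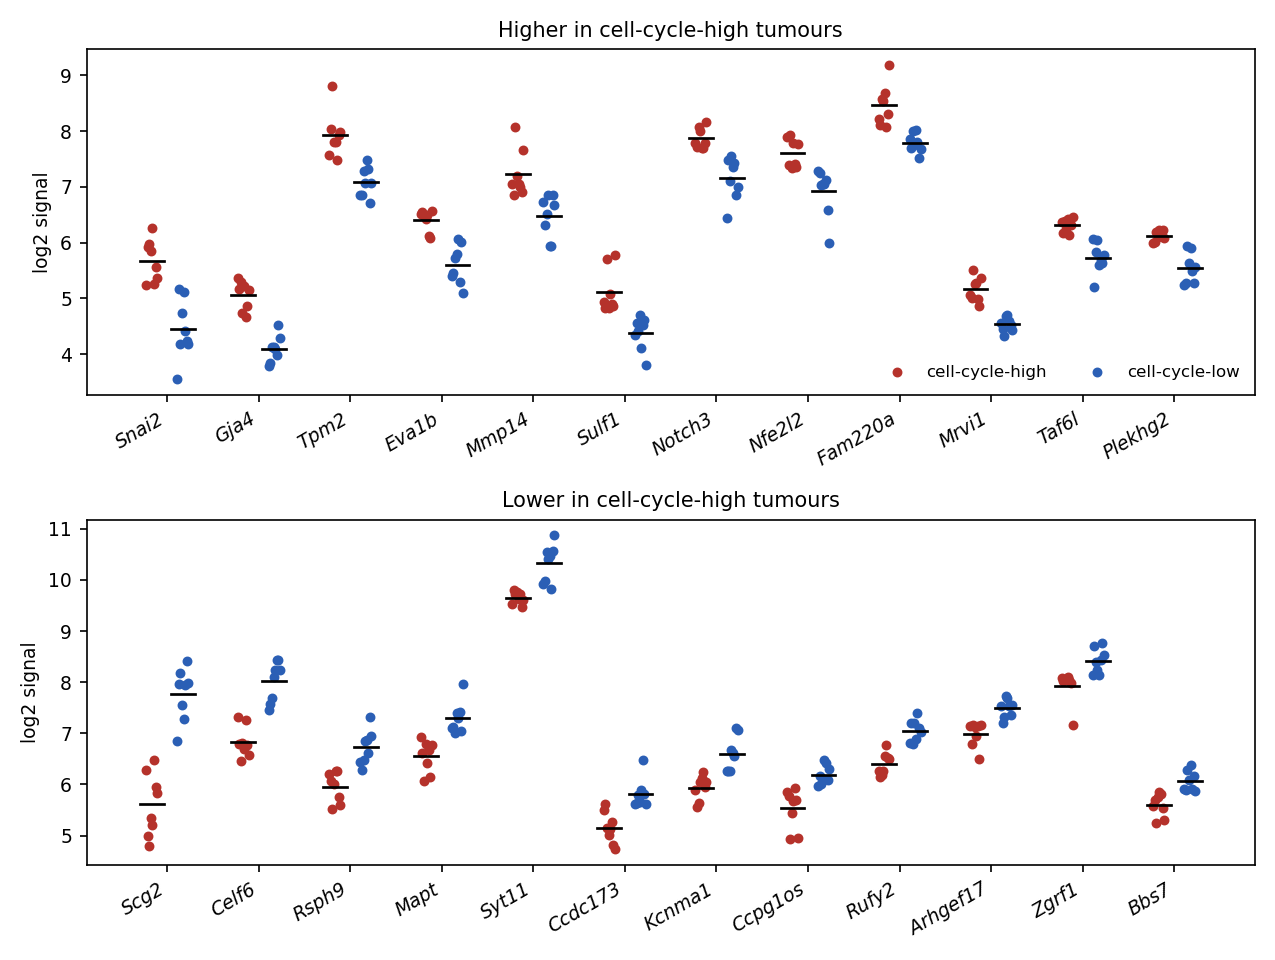
Log2 signal of each tumour for the 12 genes of largest difference in each direction among genes without overlap; red dots are the 8 cell-cycle-high and blue dots the 8 cell-cycle-low tumours, and black lines are means. Scg2 shows the widest gap, with means of 5.61 in cell-cycle-high and 7.77 in cell-cycle-low tumours.

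Genes of vessels and stroma differed by more log2 units than cell cycle genes did, and also varied more between tumours of a group. The fibroblast and interstitial matrix list had a median of 0.71 (22 of 22 higher), the endothelial list 0.61 (23 of 24) and the pericyte and smooth muscle list 0.58 (15 of 15). The pericyte list mean separated the groups, at 7.06 to 7.59 in cell-cycle-high and 5.61 to 7.05 in cell-cycle-low tumours. Endothelial list means were 6.18 to 6.92 in cell-cycle-high and 5.04 to 6.57 in cell-cycle-low tumours, and matrix list means 7.38 to 8.87 and 6.53 to 7.74 in the same order, both with overlap. The group averages of the matrix, endothelial and pericyte list means differed by 0.65, 0.63 and 0.64, with pooled SDs of 0.43, 0.37 and 0.33. Those of the 9 cell cycle lists differed by 0.12 to 0.22, with pooled SDs of 0.063 to 0.16.

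These stromal differences were uneven across the title series. Within the higher series (7 cell-cycle-high and 4 cell-cycle-low tumours) the matrix, endothelial and pericyte medians were 1.06, 0.84 and 0.86. Within the lower series (1 and 4 tumours) they were 0.037, 0.11 and 0.16. Among deficient tumours alone they were 0.44, 0.43 and 0.58, and without wild type tumour 5 they were 0.60, 0.46 and 0.53.

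Aplnr, the apelin receptor of growing vessels, had the largest endothelial difference, from 6.59 to 9.28 (median 8.43) in cell-cycle-high tumours and from 3.70 to 7.69 (median 6.03) in cell-cycle-low tumours, or 4.96-fold higher (2.31, SE 0.52). Tek, the angiopoietin receptor, differed by 1.06 (SE 0.25), Cd34, a sialomucin of vessels, by 1.04 (SE 0.30), and Ptprb, an endothelial phosphatase, by 1.03 (SE 0.30). All overlapped, and Cd34 was at -0.019 within the lower series. Gja4, connexin 37 of arterial endothelium, separated the groups, from 4.67 to 5.36 in cell-cycle-high and from 3.79 to 4.52 in cell-cycle-low tumours (0.96, SE 0.13).

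Notch3, the Notch receptor of mural cells, also separated them, from 7.70 to 8.17 (median 7.79) in cell-cycle-high tumours and from 6.45 to 7.56 (median 7.23) in cell-cycle-low tumours (0.72, SE 0.15), and so did its second probe set. Acta2, smooth muscle actin, was 10.24 ± 0.45 in cell-cycle-high and 9.08 ± 0.62 in cell-cycle-low tumours, Myl9, a smooth muscle myosin light chain, differed by 1.19 (SE 0.35), Tagln, transgelin, by 1.0 (SE 0.28) and Myh11, smooth muscle myosin, by 1.0 (SE 0.33). Tagln turned to -0.27 within the lower series. Tpm2, beta-tropomyosin, ran from 7.49 to 8.82 in cell-cycle-high and from 6.71 to 7.48 in cell-cycle-low tumours (0.85, SE 0.17), and Mrvi1, a cGMP kinase substrate of smooth muscle, differed by 0.63 (SE 0.09), both without overlap.

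Snai2, the Slug repressor of neural crest and mesenchymal cells, was the gene of largest difference among those higher without overlap, from 5.23 to 6.26 (median 5.71) in cell-cycle-high tumours and from 3.55 to 5.17 (median 4.32) in cell-cycle-low tumours (1.23, SE 0.23). Its second, dimmer probe set differed by 0.46 with overlap. Mmp14, a membrane-bound metalloproteinase, ran from 6.85 to 8.07 in cell-cycle-high and from 5.94 to 6.85 in cell-cycle-low tumours (0.75, SE 0.20), so the groups only just failed to overlap, and another of its probe sets differed by -0.13. Sulf1, an extracellular sulfatase of heparan sulfate, differed by 0.73 (SE 0.18), without overlap. Of the collagens, Col6a3 differed by 1.22 (SE 0.38), Col5a2 by 1.05 (SE 0.28) and Col3a1 by 0.90 (SE 0.28), with overlap. Lum, the proteoglycan lumican, differed by 0.83 (SE 0.53) but by 0.48 without deficient tumour 16, where it was at 8.35.

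The remaining genes higher without overlap had other roles. Nfe2l2, the NRF2 factor of the oxidative stress response, ran from 7.33 to 7.93 in cell-cycle-high and from 6.0 to 7.29 in cell-cycle-low tumours (0.69, SE 0.18), while a dim probe set of it differed by -0.43. Taf6l, a subunit of histone acetyltransferase complexes, differed by 0.58 (SE 0.10), Plekhg2 by 0.58 (SE 0.10), Eva1b by 0.80 (SE 0.14) and Fam220a by 0.67 (SE 0.14).

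**Figure D4:**
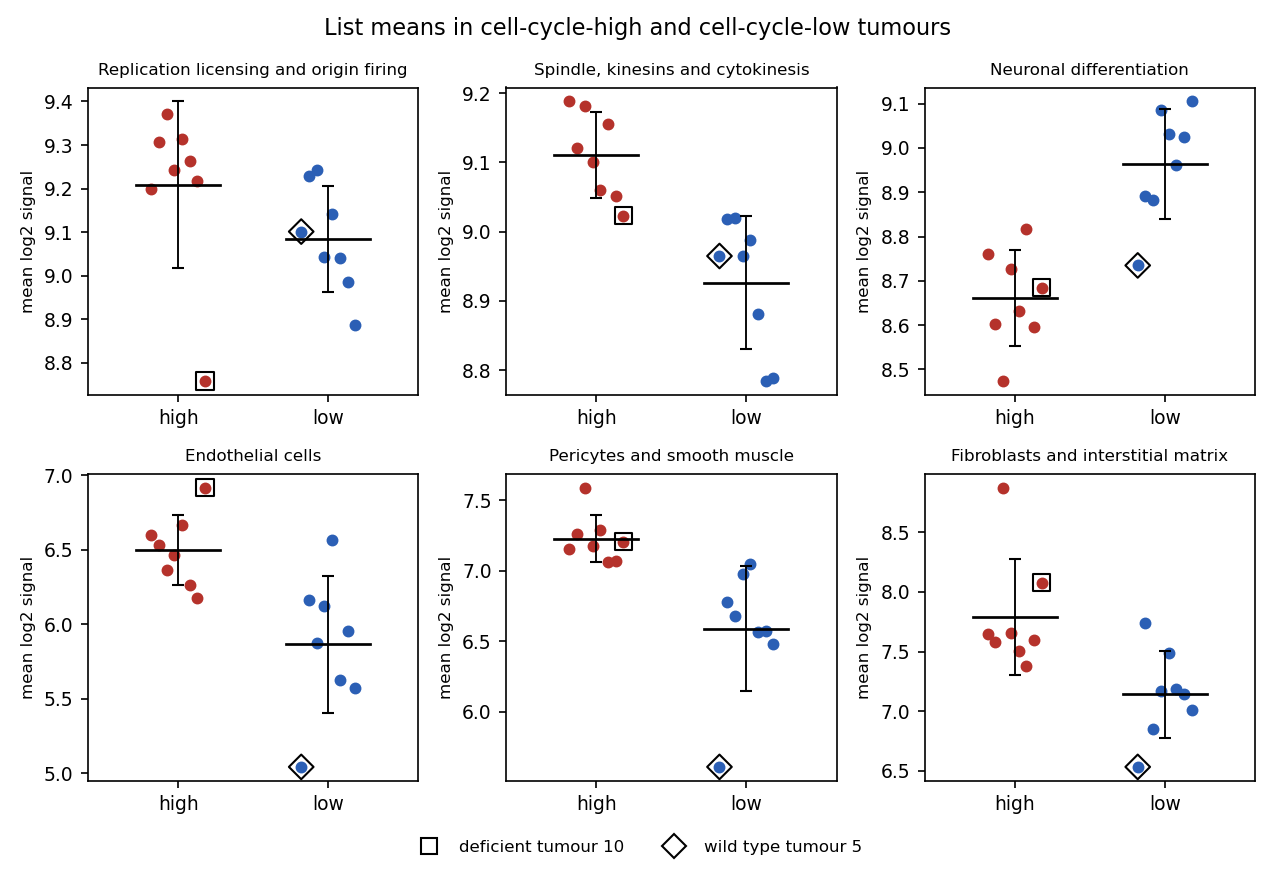
Mean log2 signal of 6 gene lists in each cell-cycle-high (left) and cell-cycle-low (right) tumour; lines and bars are the group mean ± SD (n = 8 each). Pericyte means do not overlap, deficient tumour 10 (square) is far below its group in replication licensing at 8.76, and wild type tumour 5 (diamond) is lowest in the pericyte list at 5.61.

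Markers of blood and immune cells varied without separating the groups. Macrophage and monocyte genes had a median of 0.30 (19 of 20 higher), with list means of 7.23 to 8.17 in cell-cycle-high and 6.67 to 8.12 in cell-cycle-low tumours, and a median of -0.11 within the lower series. T and NK cell genes were near the bottom of the array's range in both groups, with list means of 3.61 to 3.80 in cell-cycle-high and 3.45 to 4.30 in cell-cycle-low tumours (median 0.06). Medians were 0.19 for B and plasma cells, 0.09 for granulocytes, 0.15 for erythroid cells, 0.12 for Schwann cells and glia, 0.20 for adipocytes, 0.07 for adrenal cortex and kidney and 0.12 for interferon response genes. The B and plasma cell median was 0.073 without deficient tumour 14, the granulocyte median 0.024 without deficient tumour 10, and the adipocyte median 0.098 without deficient tumour 9 and 0.47 without deficient tumour 7. The Schwann cell median was 0.073 without deficient tumour 13 and 0.072 without deficient tumour 6. The T and NK cell median ran from 0.017 to 0.14 without single tumours. The B and plasma, T and NK, granulocyte, adipocyte and interferon medians turned sign under at least 1 setting, and no direction is read from them. The skeletal muscle median of 0.84 was 0.22 without the 3 muscle-rich tumours, and the interferon median was 0.43 without wild type tumour 5.

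Hypoxia and immediate early genes were lower in cell-cycle-high tumours. The hypoxia and glycolysis list had a median of -0.32 (5 of 18 higher), with list means of 7.59 to 7.94 in cell-cycle-high and 7.79 to 8.43 in cell-cycle-low tumours, and a median of -0.096 within the lower series. Adm, the vasodilator adrenomedullin, ran from 6.73 to 8.08 (median 7.33) in cell-cycle-high tumours and from 7.5 to 9.32 (median 8.59) in cell-cycle-low tumours (-1.17, SE 0.27). Egln3, an oxygen-sensing prolyl hydroxylase, differed by -0.86 (SE 0.39), Pdk1, which keeps pyruvate from the mitochondria, by -0.78 (SE 0.26), and Ankrd37 by -0.77 (SE 0.17). Pdk1 was at -0.016 within the lower series.

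The immediate early list, whose members respond within minutes to stimulation and to handling of tissue, had a median of -0.31 (4 of 15 higher), which was -0.037 within the higher series and -0.54 within the lower. Fos, an AP-1 subunit, differed by -1.40 (SE 0.41), with wild type tumour 2 at 10.40, and Nr4a1, an orphan nuclear receptor, by -1.20 (SE 0.51), but by -0.32 within the higher series. Atf3 differed by -0.70 (SE 0.30) and Klf4 by -0.61 (SE 0.37), the last by -0.39 without deficient tumour 5.

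Across all 24 tumours the signal of 5 genes followed the score most closely. Pearson's r with the score was 0.91 for Melk, 0.90 for Pbk, a kinase of mitotic cells, 0.88 for Asf1b, 0.86 for Cenpi, a kinetochore protein, and 0.84 for Rpp25, a subunit of ribonuclease P. Spearman's rank correlation was 0.93, 0.89, 0.88, 0.82 and 0.75 in that order. Without the 2 tumours farthest from the median score, r stayed between 0.83 and 0.89 for the first 4 and was 0.70 for Rpp25. The lowest were Pip5k1a, a kinase that makes PIP2, and Dnajb14, a chaperone, both at -0.84, Fam189b at -0.83, Map1lc3b, the LC3B protein of autophagosomes, at -0.82 and Kcnma1 at -0.81. Another probe set of Map1lc3b, nearly as bright, averaged 9.85 in cell-cycle-high and 9.84 in cell-cycle-low tumours. These correlations describe tumours that share the arrays from which the score was made, and no test was run on them.

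The 8 tumours of middle score, which the contrast did not use, allowed a test. No gene had a slope on the score at an adjusted p under 0.05 in limma (0% of 18189, lowest adjusted p = 0.246, 1299 genes with an unadjusted p under 0.05). With quantile normalization over the 24 tumours 25 genes passed, 1 of them with a positive slope. The middle scores spanned only 0.11 log2 units, and 3 of these tumours were of the higher and 5 of the lower title series.

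Slopes of the genes without overlap mostly ran against the contrast inside the middle group, where 1 tumour lay apart from the rest in score. Of the 61 genes higher without overlap 20 had a positive slope (32.8%, beside 52.8% of all genes), and of the 23 lower genes 3 had a negative slope (13%, beside 47.2%). Among the named genes Npy had the steepest slope, at 31.56 log2 units per unit of score (SE 11.72, limma adjusted p = 0.527), followed by Lum at -24.31 (SE 6.09, limma adjusted p = 0.267), Adm at 22.97 (SE 7.48, limma adjusted p = 0.420) and Ccnd2 at -22.94 (SE 6.45, limma adjusted p = 0.309). All 4 were opposite in sign to the contrast, as were Cdk6 at -15.46, Aplnr at -15.17 and Casp8 at -11.70 (SE 2.16, limma adjusted p = 0.251). Wild type tumour 1 had the lowest middle score, 9.694, and the next tumour scored 9.747. It had the highest middle values of Ccnd2 (9.29), Cdk6 (7.37) and Lum (8.62) and the lowest of Adm (5.45) and Npy (7.30). Slopes without this tumour were not fitted, so its part in these signs was not tested. Several mitotic and chromatin genes had slopes of the contrast's sign, among them Mybl2 at 2.48, Kif18b at 2.06, Asf1b at 2.05 (SE 1.49), Plk1 at 1.99 and Melk at 0.55 (SE 1.17). The named licensing, DNA synthesis and spindle checkpoint genes all had the opposite sign, from Pttg1 at -2.83 to Rpa1 at -0.03. Cenpm, Cenps, Birc5 and Rrm2, which were higher without overlap, also had negative slopes. None of these slopes passed the test.

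**Figure D5:**
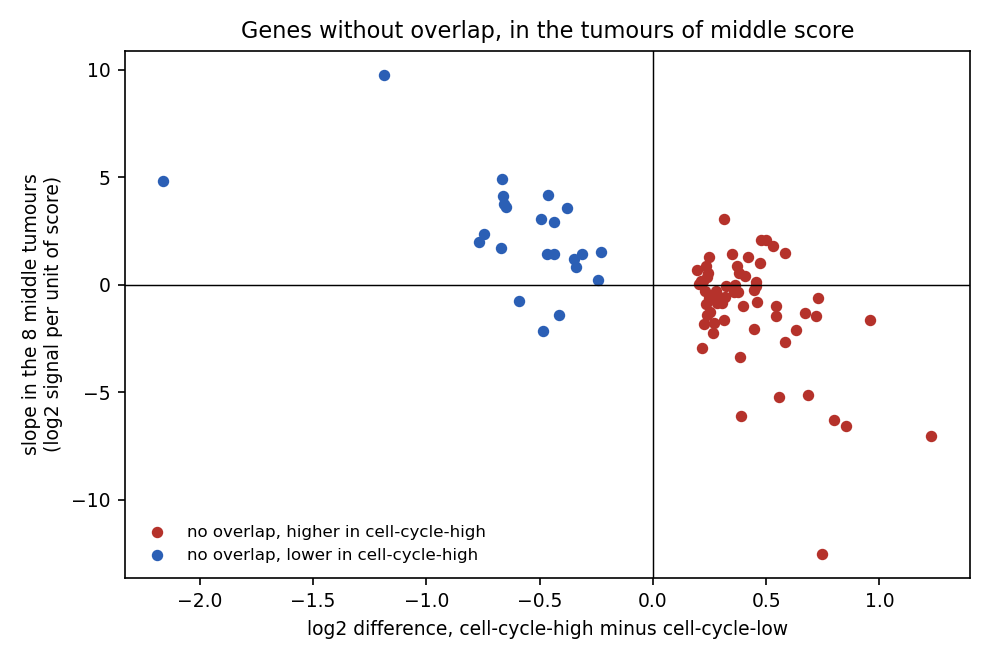
Slope of log2 signal on the score in the 8 tumours of middle score, against the log2 difference between cell-cycle-high and cell-cycle-low tumours, for the genes without overlap. Of the 61 red genes (higher) 20 have a positive slope and of the 23 blue genes (lower) 3 have a negative slope; none passes the test.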

How the data were processed

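Expression was measured on 1 array for each of 24 primary tumours and 5 bone marrow samples, from 100 ng of total RNA per the labels' protocols. The deposited log2 values came from RMA, run by the authors in Partek 6.6, per the submitters' processing notes. Quantile normalization within RMA removes shifts common to most genes, and RMA compresses low signals. Tumour arrays correlated at 0.969 to 0.993, and no pair was identical. Precision is set by the number of arrays.

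Of 45101 probe sets 64 were controls; 34958 had 1 symbol in the platform annotation, 932 several and 9147 none listed. Symbols of 34754 were matched through Entrez IDs to a RefSeq gene table (GRCm38.p6). Each of 18194 genes was represented by its brightest probe set on average over all arrays, bone marrow included; with tumours alone 217 genes would have another; 9012 genes had several. The 5 scoring genes were then left out. The members and the 33 lists (683 of 732 genes measured) were chosen with earlier results of these data known.

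Groups were compared by mean, SD, log2 difference with its standard error, and by whether all values of the groups were apart, without a test. Named were the 12 genes of largest difference in each direction among those without overlap, passing over predicted loci; the 4 members of largest absolute difference in 17 lists; Mycn, Casp8, Th, Dbh, Cdk1, Ccnb2, E2f1, Cdkn1b and Cdkn1c; and the 5 genes of highest and of lowest correlation with the score. The score was tested by exact permutation, and slopes in the 8 middle tumours with limma 3.58.1 in R 4.3.3 (two-sided, Benjamini-Hochberg adjusted p under 0.05), which was tested on simulated data. The permutations of the score were enumerated in Python 3.11.15 with numpy 2.4.6. Alternatives changed the probe set rule, the normalization, the group size, the scoring genes, a mean log2 filter of 5, the variance model, further terms and the tumours included.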

Additional observations from a re-analysis of the deposited data

Results flagged for a closer look

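In 278 groups of 8 tumours (list means and named genes, in cell-cycle-high and in cell-cycle-low tumours), 33 had a highest or lowest tumour far from the others by Dixon's criterion at the 95% level. For a single group chance gives about 1 in 20. The 278 groups share tumours and genes, so the 33 cannot be set against that share.

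Deficient tumour 10, within the cell-cycle-high group, was far below the others in the list means of replication licensing (8.76), DNA synthesis (9.28), G1/S cyclins (8.12), G2/M kinases (9.14), centromere and kinetochore (8.22) and DNA repair (7.84). It was also far below them in Cdk1 (9.75), Gmnn (9.48), Pole2 (7.60), Gins2 (7.45), Rpp25 (7.37) and Zgrf1 (7.16). The same tumour was far above the others in granulocyte (4.78) and erythroid (5.97) list means. Deficient tumour 16 was far above the other cell-cycle-high tumours in the pericyte (7.59) and fibroblast and matrix (8.87) list means, in Tpm2 (8.82) and in Col3a1 (12.24). Deficient tumour 14 was far above them in Pdcd4 (8.81).

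Among cell-cycle-low tumours, wild type tumour 5 was far above the others in the list means of apoptosis genes (7.24), T and NK cells (4.30), B and plasma cells (5.05) and interferon response (6.34). It was far below them in the pericyte list mean (5.61), Ptprb (4.39), Myl9 (4.94) and Map1lc3b (10.07). Wild type tumour 7 was far above the others in the skeletal muscle list mean (6.55), wild type tumour 2 in Fos (10.40), deficient tumour 9 in Mapt (7.96), deficient tumour 5 in Ccdc173 (6.47) and deficient tumour 7 in Bard1 (5.04). Wild type tumour 6 was far below the others in Mycn (7.34).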

How the results depend on the processing

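The share of genes without overlap depended strongly on which tumours were compared. It was 0.335% higher (61 genes) and 0.126% lower (23 genes) in the groups of 8. Averaging a gene's probe sets and drawing the groups again, which kept 6 of 8 tumours in each, left 0.0220% higher and 0.00550% lower. Groups of 6 gave 1.21% and 0.852%, and groups of 12 gave 0 and 0. Scores without Mki67 gave 0.220% higher and 0.0660% lower, without Bub1 0.0550% and 0.0165%, and without Top2a 0.154% higher; renormalization gave 0.0660% lower. Genes with a mean log2 value of 5 or more held 0.506% higher and 0.193% lower genes, through fewer genes tested. Deficient tumours alone gave 2.68% and 2.25%, and leaving out the 3 muscle-rich tumours, a choice made after seeing the data, 1.04% and 0.665%; fewer tumours make separation easier by construction. Leaving out single tumours, also chosen after seeing the data, gave 0.357% to 0.616% higher and 0.126% to 0.473% lower. Shares moved by over 1.5 times without deficient tumour 14 (0.533% higher, 0.319% lower), wild type tumour 3 (0.616% and 0.352%), wild type tumour 5 (0.539% and 0.473%), deficient tumour 6 (0.555% higher) and wild type tumour 7 (0.220% lower).

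Among list medians, the apoptosis median was 0.023 with probe sets averaged and groups drawn again and 0.039 with groups of 12, the Mycn network median -0.049 under the same setting and -0.044 within the higher series, and the fibroblast median 0.28 with groups of 12. Within the lower series, which holds 1 cell-cycle-high tumour, medians were 0.25 for DNA repair, -0.075 for neuronal, 0.11 for endothelial, 0.16 for pericyte, 0.037 for fibroblast, 3.78 for skeletal muscle and -0.096 for hypoxia genes. Choosing probe sets over the tumours alone, added after seeing the data, gave 0.330% higher and 0.115% lower, and 60 and 21 of the same genes. Fewer of the same genes, higher and lower, remained under other settings that drew the groups again. They were 1 and 0 with probe sets averaged and 23 and 3 with renormalization. Scores without Mki67 kept 15 and 3, without Bub1 9 and 2, without Top2a 20 and 7 and without Foxm1 36 and 12. The score without Aurkb kept all 61 and 23. Of 1575 values of named genes under the other settings 1568 kept their sign, and all 1680 did when single tumours were left out. Most named genes were chosen by their differences in these same groups, so this is no independent check. For a gene without overlap, leaving out a tumour cannot turn the sign. The score difference between deficient and wild type tumours was -0.015 within the lower series, and that between series was -0.069 within wild type tumours. Slopes in the middle tumours gave 25 calls with renormalization and 0 under the other settings (897 genes at an unadjusted p under 0.05 with genotype as a term). No cause of these changes was tested. No paired analysis was possible because replicate numbers were given in accession order only and pair no tumours.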

Other observations

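Among the 61 genes higher without overlap were 4 outside every list with known roles in division, chosen here after their values were seen. Knstrn, a spindle protein of the kinetochore, averaged 9.23 ± 0.12 in cell-cycle-high and 8.77 ± 0.27 in cell-cycle-low tumours. Spdl1, the dynein adaptor Spindly, averaged 9.13 ± 0.10 in cell-cycle-high and 8.66 ± 0.21 in cell-cycle-low tumours. Haus8, of the augmin complex that branches spindle microtubules, averaged 7.64 ± 0.11 in cell-cycle-high and 7.27 ± 0.17 in cell-cycle-low tumours. Stn1, of the CST complex that helps to copy telomeres, averaged 6.81 ± 0.075 in cell-cycle-high and 6.45 ± 0.23 in cell-cycle-low tumours (SD, n = 8 each).

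Genes for mitochondrial proteins that were higher without overlap, also chosen after their values were seen, differed by small amounts. Ndufaf4, an assembly factor of complex I, differed by 0.42, Ndufs8, a subunit of complex I, by 0.31, Cyc1, of complex III, by 0.25, Immt, of the inner membrane, by 0.25, Cycs, cytochrome c, by 0.24, and Mrpl51, of the mitochondrial ribosome, by 0.21. For Immt and Cycs the middle tumours averaged 9.31 and 12.05, above the cell-cycle-high means of 9.21 and 12.04. For the others they averaged between the groups. No list of mitochondrial genes was made, so nothing is read about them as a set. Srsf11 and Adar, which act on pre-mRNA splicing and RNA editing, were lower without overlap, at 10.95 ± 0.08 and 7.59 ± 0.05 in cell-cycle-high tumours, against 11.17 ± 0.12 and 7.93 ± 0.23 in cell-cycle-low tumours.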
